A study of Danio rerio with 27 samples.

Results

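The striated muscle myosin heavy chain genes of zebrafish were followed across 9 adult tissues. The rule names the genes and uses no measured value, though the names were picked with earlier results of these data known: the fast genes myhz1.1, myhz1.2, myhz1.3, myhz2, myha, myhb and myhc4, the slow gene smyhc1, the atrial gene myh6 and the ventricular gene vmhc. Of these 10 names, 9 matched a gene row by symbol, out of 32524 gene rows of which 29201 carried a symbol. The name vmhc matched none; RefSeq (GRCz12tu) gives it as another name of myh7, while other heavy chain rows carry the human-style symbols MYH7 and MYH6. Those rows were not taken to be vmhc and are described under their table symbols, together with smyhc2, myh7ba, myh7bb and myhz1.1l, as 7 further heavy chain rows. Of these, myhz1.1l and the 2 rows named MYH6 were added after their values had been seen.

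Poly(A) RNA was sequenced, with strand kept, from tail, skin, muscle, heart, brain, intestine, liver, spleen and testis, with 3 libraries for each tissue and 27 in all. All fish were wild-type adults of the TLAB strain (a cross of the AB and TL lines), with no treatment and no transgene in any group. The labels do not say that the libraries of a tissue came from separate fish, so the p-values below measure the spread between these libraries, which may be technical. Total estimated counts were 5100481 to 14151312 in 26 libraries and 91119844 in testis 3.

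Myosin heavy chain is the motor of the thick filament: its head hydrolyses ATP and pulls on actin, and its tail packs with others into the filament. Vertebrates carry a family of heavy chain genes, and a fibre's choice among them largely sets how fast it shortens. Zebrafish trunk muscle is a large mass of fast fibres with a thin layer of slow fibres just under the skin, and the heart uses its own atrial and ventricular chains.

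The dissections were read against marker genes that are not myosins. Skeletal myofibre markers (26 rows, such as creatine kinase, parvalbumin and fast troponins) summed to 41.3 to 58.6 TPM (transcripts scaled for gene length and for the library's total) in tail, 62991 to 80350 TPM in skin, 81169 to 101477 TPM in muscle and 5000 to 7677 TPM in heart, with at most 239 TPM in any other tissue. In skin 24 of the 26 rows averaged over 1 TPM, in muscle 25. The skin libraries therefore hold much myofibre RNA, with a lower summed TPM than the muscle libraries (mean sums of 70456 and 94686 TPM, ranges apart). Single genes had a skin range below the muscle range in 25.5% of all those tested. In the edgeR test given below, 5 of the 26 rows were higher in skin and 3 lower (3.64% and 2.74% of all tested genes). Their median log2 fold change was -0.03, as over all genes. The lower myofibre level in skin thus holds on the TPM scale only. The tail libraries hold almost no myofibre RNA. Epidermal markers (5 rows, such as keratins) summed to 61698 to 70858 TPM in tail, 6235 to 10795 TPM in skin and 12041 to 21891 TPM in muscle. By summed TPM the epidermal markers were lower in the libraries labelled skin than in those labelled muscle. None of the 5 rows passed the edgeR test for this pair. The labels are therefore used below as names of libraries, not as a measure of what each dissection contained. Cardiomyocyte markers summed to 48023 to 53724 TPM in heart and to at most 404 TPM elsewhere. In bulk RNA, fewer cells of a type and less RNA per cell cannot be told apart.

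The fast genes lie mostly in a single array. In RefSeq (GRCz12tu, used only for names and neighbours) the order on chromosome 5 is myhz2, myhc4, myha, myhz1.3, myhz1.2, myhz1.1, with no other protein-coding gene between them, while myhb is on chromosome 6, smyhc1 and smyhc2 are neighbours on chromosome 24, and myh6 is on chromosome 20. Reads from such close copies are shared out by the estimation, so the level of any single gene of the array is less certain than their sum. RefSeq also gives myhc4 as another name of myhz1.1, so the 2 symbols may not be told apart in all sources.

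**Figure D1:**
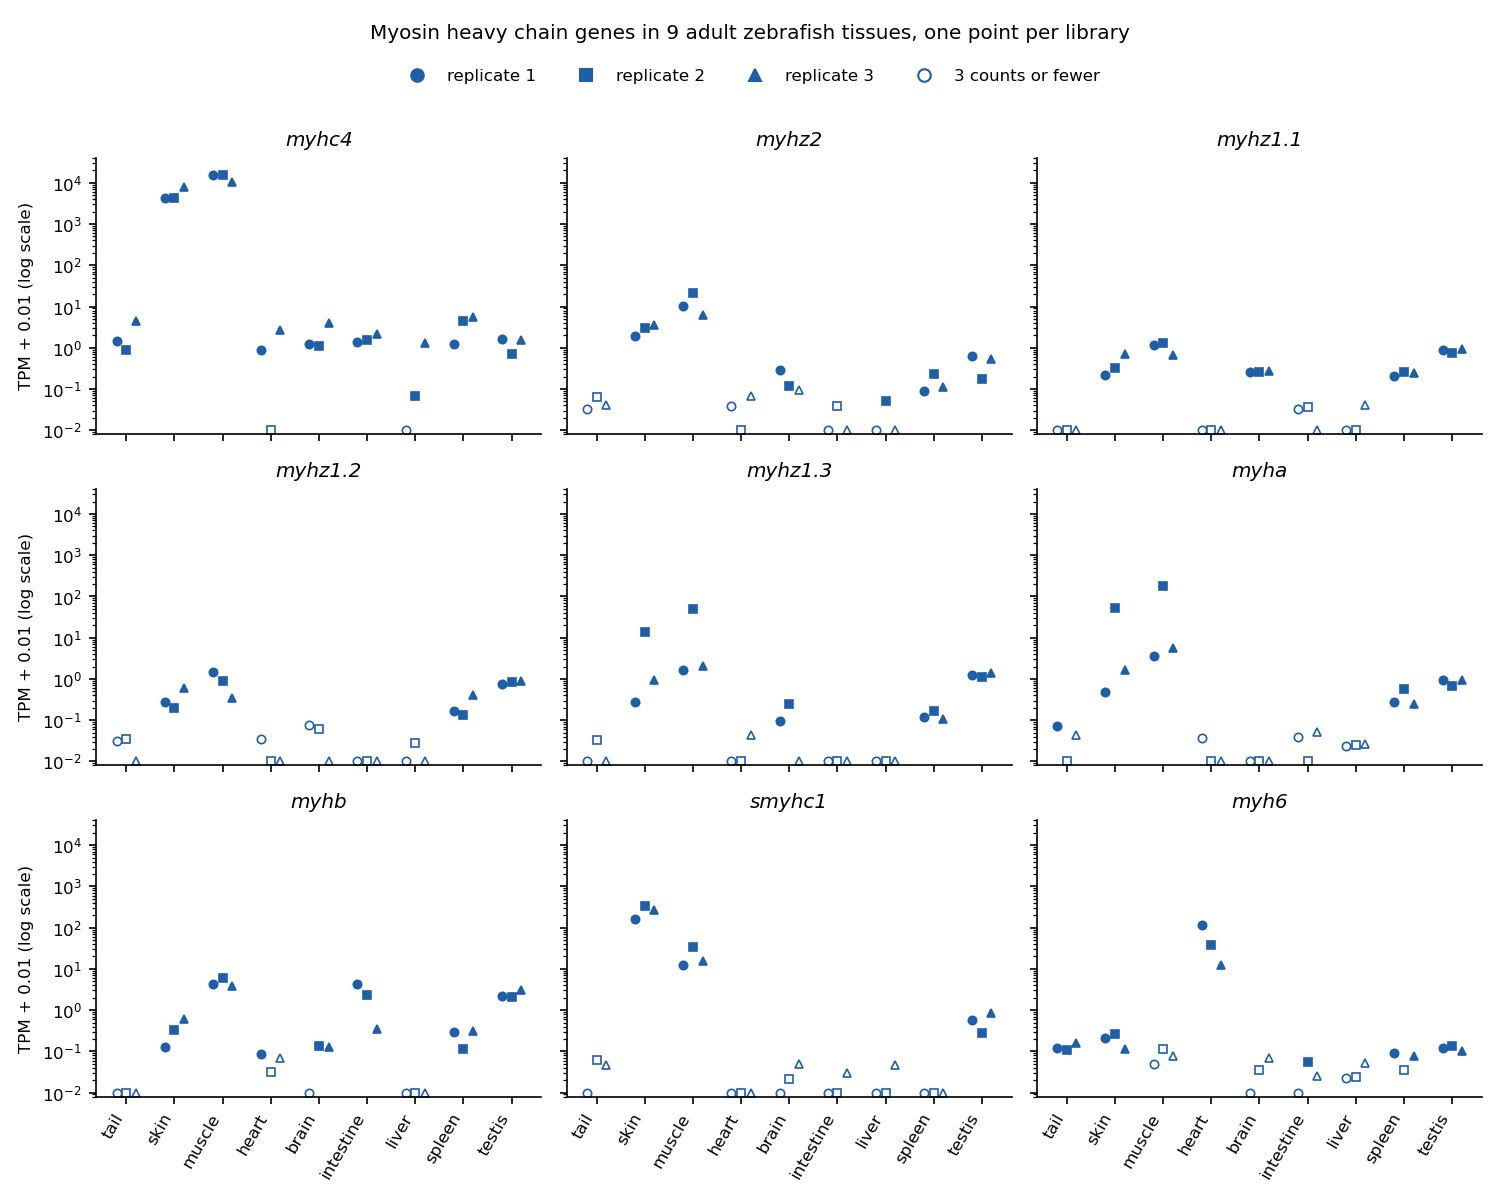
TPM plus 0.01 on a log axis for each of the 9 matched genes in every library of the 9 tissues, 1 point per library; open symbols mark libraries with 3 estimated counts or fewer. myhc4 sits at or above 4306 TPM in every skin and muscle library and at or below 5.60 TPM in all others, smyhc1 is highest in skin, and myh6 exceeds 1 TPM only in heart.

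Among the 9 matched genes, myhc4 supplied most of the RNA in skin and muscle: 91.5% to 96.7% of their summed TPM in skin and 98.2% to 99.8% in muscle. In testis its share was 10.4% to 18.1%. Over all 16 heavy chain rows, where myhz1.1l took 28.9%, 29.3% and 25.0% in skin, myhc4 took 53.7%, 40.9% and 57.1% in skin. In muscle it took 92.4%, 85.3% and 88.9% of the 16 rows. It had 4348, 4306 and 7974 TPM in the 3 skin libraries and 15120, 15826 and 10742 TPM in the 3 muscle libraries, with means of 5543 ± 2105 and 13896 ± 2754 TPM (SD, n = 3 each). Outside these tissues it stayed between 0 and 5.60 TPM, with 0.88, 0 and 2.61 TPM in heart. Ranked by mean level, muscle came before skin and skin before spleen without overlap, while the ranges from spleen through tail, brain, intestine, testis, heart and liver overlapped from each tissue to the next.

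The other genes of the array were low. myhz2 had 10.4, 21.8 and 6.08 TPM in muscle and at most 0.0571 TPM in heart, at least 182-fold higher in muscle when heart is set at 3 counts per library, or 118-fold without muscle 2. In skin myhz2 reached 1.96, 2.93 and 3.52 TPM. Next in the array came 4 genes with low levels in most libraries. myhz1.1 had 1.14, 1.27 and 0.672 TPM in muscle and myhz1.2 had 1.49, 0.882 and 0.332 TPM, both far under myhc4 in the same libraries.

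Testis held myhz1.1 at 0.853, 0.723 and 0.907 TPM and myhz1.2 at 0.760, 0.839 and 0.896 TPM. These levels overlap those of muscle. Brain and spleen held myhz1.1 at 0.193 to 0.261 TPM, on 8.77 to 16.9 estimated counts a library.

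The levels of myha and myhz1.3, neighbours in the array, differed widely between libraries. In skin myha had 0.460, 52.6 and 1.62 TPM, and in muscle 3.57, 182 and 5.72 TPM. In skin myhz1.3 had 0.269, 13.6 and 0.908 TPM, and in muscle 1.63, 50.6 and 2.001 TPM. In both tissues the library numbered 2 stood apart: for myha it was 32.4 times the next highest library in skin and 31.8 times in muscle, and for myhz1.3 15 times in skin and 25.3 times in muscle.

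**Figure D2:**
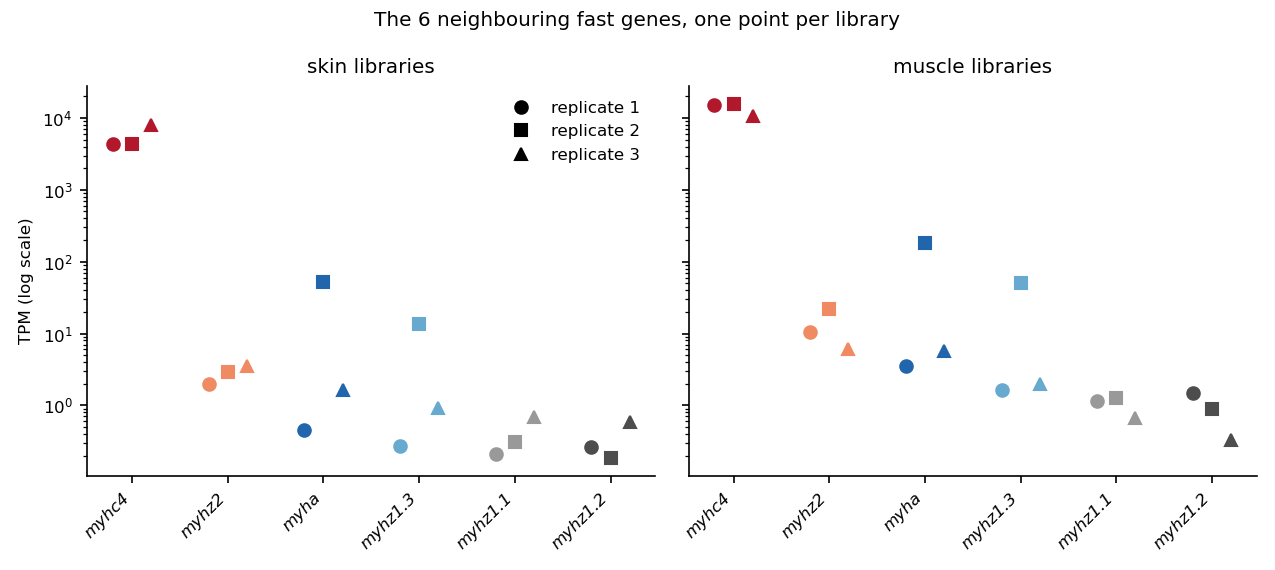
TPM on a log axis for the 6 neighbouring fast genes in the 3 skin libraries (left) and the 3 muscle libraries (right), 1 point per library with its replicate number as the symbol. Replicate 2 is raised for myha (52.6 TPM in skin, 182 TPM in muscle) and myhz1.3 (13.6 and 50.6 TPM), and not for myhc4 in skin.

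A rise of at least 5-fold over both other numbers, in skin and in muscle alike and to at least 1 TPM, was seen for 18 of 24415 tested genes (0.0737%) with number 2, against 6 with number 1 and 7 with number 3. The labels do not say whether skin 2 and muscle 2 came from the same fish. Over all 27 libraries myha and myhz1.3 were the genes most alike to each other, with a Pearson r of 0.985 on log2(TPM + 1). That value is a description over libraries that share these same high points.

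myhb, the fast gene outside the array, had its own tissue pattern. It reached 0.117, 0.320 and 0.586 TPM in skin, 4.30, 6.11 and 3.87 TPM in muscle, 4.27, 2.29 and 0.347 TPM in intestine and 2.24, 2.096 and 3.07 TPM in testis. It was at 0 in all tail and liver libraries. The muscle range lay above that of testis but overlapped that of intestine, which in turn overlapped testis and skin. The gene most like it over the 27 libraries was a troponin I row named TNNI2 (ENSDARG00000045592, r = 0.974), which was likewise present in muscle, intestine and testis: 2.26, 4.66 and 1.83 TPM in muscle, 2.76, 1.81 and 0 TPM in intestine, and 1.06, 1.29 and 1.76 TPM in testis. That row was named for its r over these same libraries, so its levels are a description only.

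The slow gene smyhc1 was higher in skin than in muscle. It had 160, 328 and 267 TPM in skin and 12.3, 34.8 and 15.7 TPM in muscle. It was at 0 in all heart libraries and at 0 to 2.5 estimated counts in tail, and testis held 0.575, 0.271 and 0.841 TPM. The skin and muscle ranges were far apart, and muscle was at least 297-fold above heart set at 3 counts per library.

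The genes most alike to smyhc1 over the 27 libraries were the MYH6 row ENSDARG00000114031 (r = 0.998) and its neighbour smyhc2 (r = 0.997), followed by ADIPOQ (r = 0.995), si:dkeyp-68b7.10 (r = 0.994) and the troponin T row tnnt2e (r = 0.992). smyhc2 was the larger: it had 987, 2311 and 1875 TPM in skin and 50.8, 122 and 94.2 TPM in muscle. That MYH6 row had 216, 365 and 306 TPM in skin and 9.76, 25.4 and 19.3 TPM in muscle, so by level and tissue it sits with the slow genes and not with the heart. Estimated counts of smyhc1, smyhc2 and this row were not whole numbers (highest in muscle 1050.66, 4115.65 and 856.959). Reads may thus be shared out among close copies here too, which leaves their single levels and r less certain.

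Summed over the 9 matched genes, heavy chain RNA made up 0.451%, 0.470% and 0.825% of all TPM in skin, 1.52%, 1.61% and 1.08% in muscle and 0.0116%, 0.0038% and 0.0015% in heart. Over all 16 heavy chain rows, with the MYH7 row of the heart, smyhc2 and myhz1.1l among them, the shares were 0.809%, 1.05% and 1.40% in skin, 1.64%, 1.86% and 1.21% in muscle and 0.772%, 0.894% and 1.02% in heart. Within the sum of the 9 matched genes smyhc1 took 3.55%, 6.98% and 3.24% in skin and 0.0813%, 0.216% and 0.145% in muscle, means of 4.59 ± 2.08% and 0.148 ± 0.0674% (SD, n = 3 each). The difference of 4.44 percentage points gave p = 0.1 when every assignment of the libraries was enumerated (two-sided exact permutation), which is as low as 3 against 3 libraries can go (adjusted p = 0.3 over 3 tissue pairs). The shares in tail, where smyhc1 had at most 3 counts, differed by 1.58 points from muscle (exact p = 0.4) and by -2.86 points from skin (exact p = 0.3), and cannot be read further. With smyhc2 and the MYH6 row ENSDARG00000114031 added, the slow rows made up 16.8%, 28.5% and 17.5% of all 16 heavy chain rows in skin. In muscle they made up 0.445%, 0.980% and 1.07%. That MYH6 row was added after its values had been seen and is counted as slow from them, so it is no independent support. smyhc2 alone took 12.2%, 21.9% and 13.4% in skin and 0.310%, 0.656% and 0.780% in muscle.

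**Figure D3:**
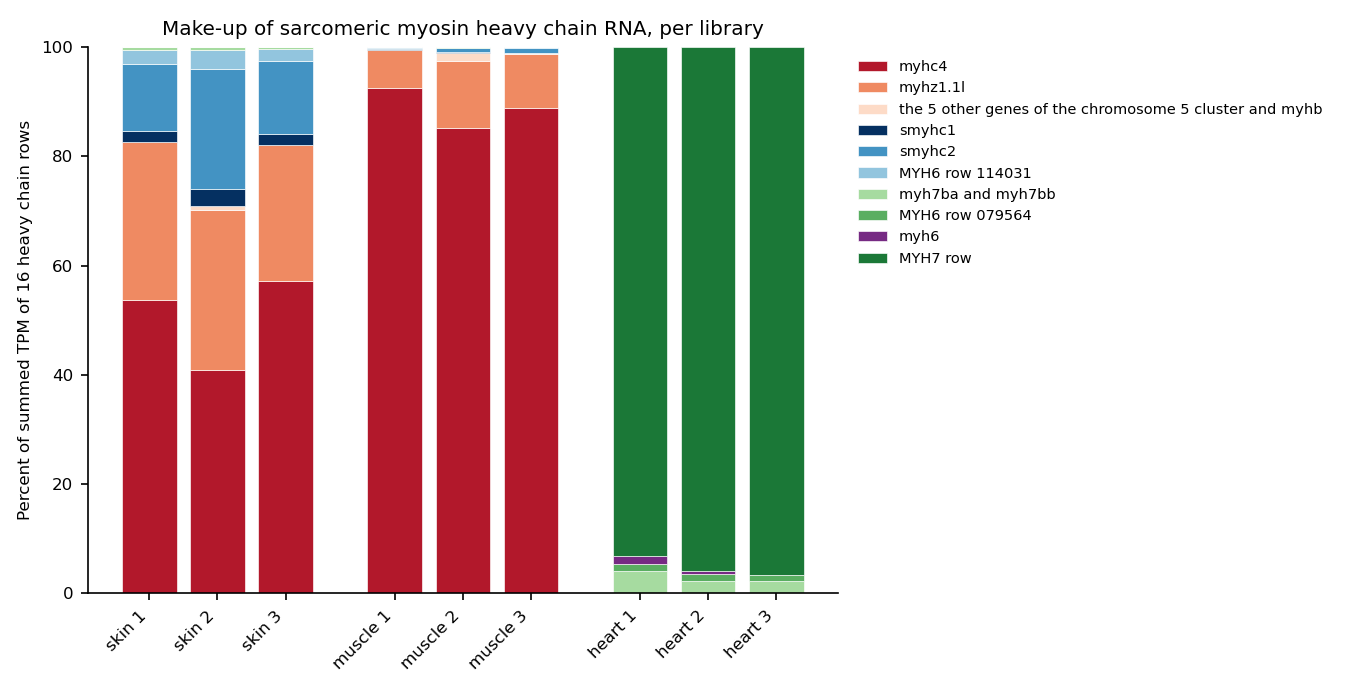
Percent of the summed TPM of the 16 heavy chain rows taken by each gene or group of genes, as stacked bars from 0 to 100 for each skin, muscle and heart library. Slow rows (blue) are smyhc1, smyhc2 and the MYH6 row ENSDARG00000114031, the last counted as slow from these same values. They take 16.8% to 28.5% in skin and 0.445% to 1.07% in muscle. The MYH7 row fills most of each heart bar.

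The test across all genes (edgeR quasi-likelihood, adjusted by Benjamini-Hochberg over 24415 genes, called at adjusted p under 0.05 and at least a 2-fold change) put 3 of the 9 matched genes past the threshold for skin over muscle. 1 was higher, against 3.64% of all tested genes, and 2 were lower, against 2.74%. smyhc1 rose in skin by a log2 fold change of 3.97 (SE 0.48, adjusted p = 1.95e-05). By mean TPM, which is scaled differently, skin had 12.0 times the muscle level. The scales are offset in this contrast. Over the genes tested, the median log2 fold change was -0.03 in edgeR and -0.234 in a fit of log2(TPM + 1). myhb fell by 3.39 on the log2 scale (SE 0.67, adjusted p = 0.0028) and myhz2 fell by 1.77 (SE 0.49, adjusted p = 0.025). The call on myhz2 is lost without muscle 2 (log2 fold change -1.19, adjusted p = 0.20), without skin 1 (-1.63, 0.0997) or without skin 2 (-1.68, 0.106), and when only the skin and muscle libraries were fitted.

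myhc4 had a log2 fold change of -0.91 (SE 0.79, adjusted p = 0.62), although its skin range lay below its muscle range. Ranges lay apart in this way, skin below muscle, for myhc4, myhz2 and myhb, 3 of 9, against 25.5% of all tested genes, and skin above muscle for smyhc1, 1 of 9, against 5.02%. For myhz1.1 and myhz1.2 the log2 fold changes were -0.91 and -0.95 with overlapping ranges, and neither passed. Those of myha (-1.64, SE 1.15) and myhz1.3 (-1.68, SE 1.06) turn on the libraries numbered 2: without muscle 2 they were 2.095 and 1.591, and without skin 2 they were -5.37 (adjusted p = 0.013) and -4.37 (adjusted p = 0.038), so no direction is given for either gene.

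**Figure D4:**
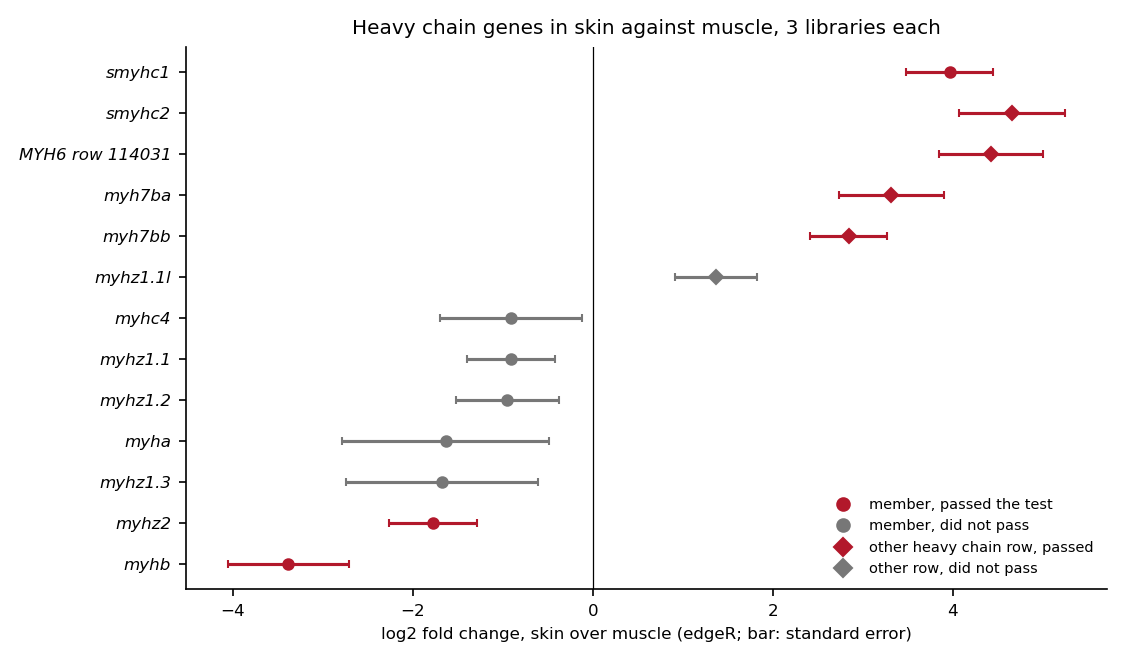
log2 fold change of skin over muscle (edgeR, 3 libraries each) for 8 matched genes (circles) and 5 other heavy chain rows (diamonds). Not shown are myh6 (1.85), the MYH7 row (-3.60) and the MYH6 row ENSDARG00000079564 (1.16), none of which passed. Bars show an approximate standard error, worked back from the F statistic. Red marks the genes and rows that passed the test. The slow genes smyhc1 (3.97) and smyhc2 (4.66) lie to the right, with myhz2 (-1.77) and myhb (-3.39) to the left.

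Of the 7 other heavy chain rows, 4 were higher in skin and none was lower, against 3.64% and 2.74% of all tested genes. Among the 4, the MYH6 row ENSDARG00000114031 was added after its values had been seen. smyhc2 was higher in skin by 4.66 (SE 0.59, adjusted p = 1.26e-05) and the MYH6 row ENSDARG00000114031 by 4.43 (SE 0.58, adjusted p = 8.03e-05), and myh7ba and myh7bb, relatives of the mammalian slow gene MYH7B, by 3.32 and 2.85. By mean level myh7ba and myh7bb were highest in heart. The MYH7 row had 0.256, 0.911 and 1.13 TPM in skin and 1.24, 5.86 and 0.697 TPM in muscle (log2 fold change -3.60, adjusted p = 0.087). myhz1.1l, a fast-type gene by name on chromosome 22, differed from myhc4 in its level: it had 2338, 3087 and 3485 TPM in skin and 1137, 2276 and 1182 TPM in muscle, yet its log2 fold change of 1.37 did not pass (adjusted p = 0.072). Beside these results stand the epidermal sums given above, lower in skin than in muscle, with none of the 5 rows past the test. Tail fin and bone markers (6 rows) summed to 5.24 to 7.81 TPM in skin and 31.3 to 51.5 TPM in muscle, with 3 rows lower in skin, none higher and a median log2 fold change of -2.12; in skin 2 of the 6 rows averaged over 1 TPM, in muscle 4. The part of either list in the heavy chain differences was not tested.

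Slow fibre markers that are not myosins (7 rows) summed to 2406 to 3027 TPM in skin and 128 to 333 TPM in muscle. They summed to 2463 to 2987 TPM in heart, and the TNNI1 rows are also in the cardiomyocyte list. The list is thus not particular to slow fibres. Of the 6 that were tested, 4 rose in skin and none fell (3.64% and 2.74% of all tested genes), with a median log2 fold change of 3.13 against -0.03 over all genes. Slow troponin C (TNNC1, ENSDARG00000037539) had 1965, 2543 and 2026 TPM in skin and 84.9, 247 and 195 TPM in muscle. Of the 26 skeletal myofibre rows, 5 rose and 3 fell in skin, with a median of -0.03.

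In the tail the heavy chains were nearly absent. For tail over skin, 8 of the 9 matched genes fell, against 17.0% of all tested genes, and none rose, against 12.5%. smyhc1 was at least 4171-fold higher in skin than in tail set at 3 counts per library, and myhz2 at least 46.7-fold. For myhz1.3 the bound was 79.6-fold with all skin libraries and 9.50-fold without skin 2. myhc4 had 1.42, 0.890 and 4.38 TPM in tail against 4348, 4306 and 7974 TPM in skin (log2 fold change -12.45, adjusted p = 3.02e-08). myh6 did not pass (-1.36, adjusted p = 0.15), with 0.101 to 0.247 TPM in skin and 7 to 15 counts a library.

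Between muscle and heart the matched genes took opposite sides. Of the 9 matched genes, 8 were higher in muscle, against 19.2% of all tested genes, and 1, myh6, was lower, against 9.74%. The log2 fold changes were 13.93 for myhc4 and 6.51 for myhb, each with at least 1 heart library above 3 counts, and adjusted p was at most 0.00031 for all 8. Set against the 5 other organs (brain, intestine, liver, spleen and testis), the same 8 genes were higher in muscle, against 23.0% of tested genes, and none was lower, against 9.11%. The smallest of these differences was that of myhz1.1 (log2 fold change 3.59, SE 0.38, adjusted p = 1.22e-07). Its ratio of mean TPM was 3.86, a different measure. The fit averages the 5 organs on the log scale. The TPM ratio averages them on the plain scale, where testis was highest (mean 0.828 TPM). The contrast averages the 5 organs and hides single ones. Testis overlapped muscle for myhz1.1 and myhz1.2, and intestine overlapped it for myhb. Spleen also overlapped muscle for myhz1.2, with 0.126 to 0.392 TPM against 0.332 to 1.49 TPM.

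The atrial gene myh6 was highest in heart and varied widely between the heart libraries. It had 115, 37.7 and 12.1 TPM in the 3 heart libraries, on 5794, 1759 and 411 counts, and no library of any other tissue exceeded 0.247 TPM. Muscle held 2 to 3 counts of myh6 a library, so that heart was at least 724-fold higher, or 328-fold without heart 1. For heart over the 5 other organs, 1 of 9 genes was higher, against 16.3% of tested genes, and it was myh6 (log2 fold change 10.53, SE 0.36, adjusted p = 2.45e-17). 1 was lower, against 13.0%: myhz1.1, with heart at 0 in every library (adjusted p = 0.0029), a call that is lost without liver 3 (adjusted p = 1).

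The heart's main heavy chain RNA was under the symbol MYH7 (ENSDARG00000079782), with 7190, 8582 and 9864 TPM in heart and at most 5.86 TPM elsewhere, that highest value being in muscle 2. A second row named MYH6 (ENSDARG00000079564) had 97.1, 113 and 104 TPM in heart, myh7ba 216, 159 and 142 TPM, and myh7bb 100.2, 48.1 and 85.6 TPM. The MYH7 row was highest where myh6 was lowest, in heart 3, and lowest where myh6 was highest, in heart 1. The heart libraries also differed in smooth muscle markers, whose 7 rows summed to 1933, 842 and 1490 TPM, with 235, 57.9 and 108 TPM of the smooth muscle heavy chain row MYH11 (ENSDARG00000009782). The slow troponin C row TNNC1 (ENSDARG00000037539) likewise was highest in heart 1, with 203, 19.3 and 21.9 TPM. How much atrium, ventricle or outflow tract each library held is not given, and the part of these differences in the myh6 levels was not tested.

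The genes most alike to myh6 over the 27 libraries were caiap (r = 0.977), TBX5 (r = 0.972), ednrab, GJA5 and LRRC10. TBX5, a transcription factor of the early heart and its chambers, had 39.6, 27.6 and 20.8 TPM in heart, the same order of libraries as myh6, and was at 0 in all muscle libraries. TBX5 was named for its r over these same libraries, so these levels are a description only. Those most alike to myhc4 were pvalb4 (r = 0.993), a calcium-buffering parvalbumin, and the fast troponin rows TNNI2 (r = 0.992) and TNNT3 (r = 0.991), with the calcium pump row atp2a1l (r = 0.991).

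Myosin light chains, which bind the neck of the heavy chain, were measured as 9 rows. Of 12 listed names 8 matched. The names mylz3, mylpfa, mylpfb and myl3 did not, so the counts and median below cover only part of the list. In skin over muscle 4 rose and 1 fell (3.64% and 2.74% of all tested genes), with a median log2 fold change of 1.003. myl10 had 3524, 4371 and 3739 TPM in skin and 161, 373 and 254 TPM in muscle (log2 fold change 4.30, adjusted p = 2.63e-05), and myl13 rose by 4.19 (adjusted p = 8.34e-06). The fast essential chain MYL1 (ENSDARG00000017441) had 12040, 9976 and 14740 TPM in skin and 24504, 20725 and 14412 TPM in muscle, and did not pass (log2 fold change -0.24, adjusted p = 0.81). In muscle over heart 5 light chain rows were higher and 2 lower (19.2% and 9.74% of all tested genes), the 2 being the cardiac chains MYL7 and cmlc1. The 1 that fell in skin over muscle was MYL7, with 0.348, 0.146 and 0 TPM in skin and 0.449, 19.4 and 0.871 TPM in muscle, of which muscle 2 stood far above the rest.

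Proteins that fold the myosin motor or build the thick filament were tested as 18 rows. All 18 were higher in muscle than in the 5 other organs (23.0% of all tested genes). All 18 fell in tail over skin (17.0%). The median log2 fold changes were 7.68 and -9.90. In muscle over heart 9 were higher and 6 lower (19.2% and 9.74% of all tested genes). SMYD1 (ENSDARG00000009280), a methyltransferase needed for thick filament assembly, had 470, 514 and 577 TPM in skin and 605, 593 and 444 TPM in muscle, with overlapping ranges. In skin over muscle 3 rose and none fell (3.64% and 2.74% of all tested genes). The clearest by level was myosin binding protein C row MYBPC3 (ENSDARG00000011615), with 379, 606 and 498 TPM in skin and 17.7, 37.8 and 31.8 TPM in muscle (log2 fold change 4.48, adjusted p = 7.21e-07), and with 1852, 1743 and 1955 TPM in heart.

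Regulators of fibre type and heart chambers were measured as 14 rows. In muscle over the 5 other organs 10 were higher and 1 lower (23.0% and 9.11% of all tested genes), in tail over skin 9 fell (17.0%), and in skin over muscle 1 rose (3.64%), which is near the share over all genes. That 1 was a MEF2C row (ENSDARG00000009418), a transcription factor of muscle genes, with 41.5, 72.9 and 54.6 TPM in skin and 33.3, 39.2 and 24.2 TPM in muscle (log2 fold change 1.58, adjusted p = 0.0011). Its TPM differ by less than this fold change, and the reason was not tested. SOX6, which holds down slow genes in zebrafish fast fibres, had 5.93, 5.89 and 6.05 TPM in skin and 17.5, 13.6 and 7.97 TPM in muscle. Its skin range lay below its muscle range, as for 25.5% of all tested genes, and it did not pass (log2 fold change -0.38, adjusted p = 0.60).

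The smooth muscle and non-muscle heavy chains, which are not parts of the striated sarcomere, were measured as 6 rows. None rose and 1 fell in skin over muscle (3.64% and 2.74% of all tested genes), 3 rose and 2 fell in tail over skin (12.5% and 17.0%), and 2 were higher and none lower in muscle over the 5 other organs (23.0% and 9.11%). The non-muscle row MYH9 (ENSDARG00000001014) had 122, 142 and 157 TPM in tail against 28.9, 38.4 and 26.6 TPM in skin (log2 fold change 1.40, adjusted p = 0.00081), in the same libraries in which the striated genes fell. By TPM this row differs by more than that fold change. For tail over skin the median over the genes tested was -0.033 in edgeR and 0.283 in a fit of log2(TPM + 1). The cause of the gap was not tested.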

How the data were processed

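The authors deposited, for each library, a TPM value and an estimated count per gene; the submitters' processing notes name cutadapt 1.18, HISAT2 2.1.0, SAMtools 1.9, kallisto 0.43.0 and the build GRCz11, and the annotation is not given in the sources used here. The deposited TPM values are scaled for gene length and library; the estimated counts, deposited without normalization, were rounded to whole numbers. Symbols came from a table of gene identifiers. Levels are given as TPM. Differences come from edgeR 4.0.16 (R 4.3.3): filterByExpr by tissue, TMM scaling, a robust quasi-likelihood fit of 27 libraries with a mean per tissue. The standard errors (SE) are approximate. Each was set as the absolute log2 fold change over the square root of its F statistic. All 9 matched genes were tested; the contrasts share libraries. Folds against tissues at or under 3 counts per library are lower bounds against that floor, which covers counting error only. Shares were compared by exact permutation. The code was tested on simulated data. The members and lists were chosen with earlier results of these data known. Named were the members, 5 genes most alike to each and, in each list, at most 5 of the highest mean TPM, with MYL7 and the MEF2C row among them. Alternatives were DESeq2 1.42.0, limma 3.58.1 on log2(TPM + 1) or log2(TPM + 0.1), no filter, fits of the compared tissues only, a replicate block and libraries left out. No sequence was used here.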

Additional observations from a re-analysis of the deposited data

How the results depend on the processing

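For single genes of the family, 911 values with 1 library left out and 288 under other alternatives kept their direction and call; the exceptions are the following and those of myhz2 for skin over muscle (adjusted p = 0.087 when only skin and muscle were fitted, and 0.20, 0.0997 and 0.106 without muscle 2, skin 1 and skin 2, 0.41 without number 2 of both tissues and 0.22 without muscle 2 and 3). The 6 neighbouring fast genes summed to 1 feature (chosen after seeing the data) left 4 genes called for muscle over heart, 3 for muscle over the 5 other organs, 1 for heart over them and 3 for tail over skin, since fewer genes were tested. limma on log2(TPM + 1), which tested 7 of the 9 genes (myhz1.1 and myhz1.2 fell under its filter), called 1 for heart over the other organs and 4 for tail over skin, and ended the tail calls of myhz1.3 (log2 fold change -1.70, adjusted p = 0.076) and myhb (-0.41, 0.27). Leaving out 1 library gave 1 to 2 calls for heart over the other organs, 2 to 4 for skin over muscle and 8 to 9 for tail over skin, and moved the genes lower in skin over muscle to between 310 and 874, with 310 without skin 3 and 376 without skin 2. Over all genes edgeR called 4687 higher and 2377 lower in muscle over heart, 5626 and 2225 in muscle over the other organs, 3989 and 3178 in heart over them, 888 and 668 in skin over muscle, and 3055 and 4145 in tail over skin. limma with 1 added called 3097 higher in muscle over heart, 2958 higher and 3774 lower in muscle over the other organs, 2380 higher and 4814 lower in heart over them, 416 higher in skin over muscle, and 5462 higher and 1958 lower in tail over skin. With 0.1 added it called 5590 lower in muscle and 7363 lower in heart over the other organs, 450 higher and 1052 lower in skin over muscle, and 6971 higher and 2543 lower in tail over skin; the cause was not tested. Fitting only skin and muscle gave 347 lower in skin. In alternatives chosen after seeing the data, leaving out number 2 of both gave 358 lower, and leaving out muscle 2 and 3 gave 454 higher and 228 lower. Without muscle 2, myhz1.3 and myha turned to 1.59 and 2.095 for skin over muscle, and to 1.68 and 2.39 without muscle 2 and 3; without skin 2 they passed the test at -4.37 and -5.37. By estimated counts in place of TPM the matched genes were 1.96% of skin and 4.43% of muscle libraries. DESeq2 gave no adjusted p for myha.

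With the replicate block, skin over muscle still had 3 genes of the family called and the other contrasts 9, 8, 2 and 8, and 929 genes rose and 683 fell in skin over muscle; it changed no call on a gene of the family. Same-numbered libraries of different tissues correlated at -0.0599 to 0.356 (mean 0.116), with each library taken as its deviation from its tissue mean. Pairs with different numbers ran from -0.258 to 0.161 (mean -0.0574). The 3 same-numbered pairs of muscle and skin ran from 0.000778 to 0.126. For 27 of 27 libraries the best match among other tissues shared their number. This is a hint from the data only, and the numbers were not taken as pairs. The planned sum of near-identical proteins and the share of myh6 in myh6 plus vmhc were not run. Depth limits genes at few counts, such as myhz1.2.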
